A study of Mus musculus with 6 samples.

Results

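Slc2a1, Slc2a3 and Slc16a1 encode the transporters that bring glucose and short monocarboxylates into brain cells, and their messenger RNA was followed here in neurons of the visual cortex after 1 eye had been silenced. They were chosen by name: each is the transcript cluster whose sole gene symbol in the platform annotation is Slc2a1 (cluster 6916748), Slc2a3 (6957051) or Slc16a1 (6900180). Each symbol had 1 cluster, so the 3 members are 3 of the 14859 named genes on the array. The cells were star pyramid neurons, an excitatory type of layer 4, labelled with m-Citrin (the driver line is not named in the labels) and picked by hand from dissociated mouse visual cortex at postnatal day 14. All animals had undergone monocular deprivation with tetrodotoxin (TTX), a sodium channel blocker, injected at postnatal day 12 to 13 and again at day 13 to 14, and the groups are the deprived hemisphere (3 arrays) and the non-deprived hemisphere (3 arrays) of such animals. There was no untreated animal among these groups, so the non-deprived side is a control within treated mice. The titles give every deprived array the letter r and every non-deprived array the letter l after its number, so if these stand for the right and left side, side and deprivation cannot be told apart. From 0.3 to 1 ng of RNA was amplified in 2 rounds for each array, and the labels do not say whether arrays of a group came from separate animals or pooled cells. The p-values therefore measure only the spread between these samples, which may be technical.

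Brain cells take up glucose by facilitated diffusion through the GLUT proteins of the Slc2a family. GLUT1, the product of Slc2a1, is the transporter of the blood-brain barrier endothelium and of glia, whereas GLUT3, the product of Slc2a3, is the high-affinity transporter of neurons. MCT1, the product of Slc16a1, moves lactate, pyruvate and ketone bodies together with protons, and in the brain it is known from endothelial cells, astrocytes and oligodendrocytes. In the suckling animal ketone bodies and lactate are a large part of the fuel of the brain.

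The stretches just before the transcription start of Slc2a1 and Slc16a1 are shown because Slc2a1 is a known target of hypoxia-inducible factor, whose gene and other targets are described further on, and Slc16a1 one of E-box binders such as MYC. Each sequence is 250 bases long, on the plus strand, from RefSeq on GRCm38.p6. Slc2a1 lies at chr4:119108495-119108744 and Slc16a1 at chr3:104638414-104638663, and Slc2a3 had no entry. Capitals mark ACGTG (the core of the hypoxia response element), CACGTG (the E-box, which contains that core on both strands) and GGGCGG (the GC box), each searched on both strands. TATAAA was searched too.
Slc2a1: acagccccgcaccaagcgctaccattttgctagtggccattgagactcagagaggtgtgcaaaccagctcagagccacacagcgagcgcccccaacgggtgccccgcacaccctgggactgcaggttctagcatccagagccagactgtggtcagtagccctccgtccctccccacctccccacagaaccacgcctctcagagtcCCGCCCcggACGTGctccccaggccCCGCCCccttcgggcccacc
Slc16a1: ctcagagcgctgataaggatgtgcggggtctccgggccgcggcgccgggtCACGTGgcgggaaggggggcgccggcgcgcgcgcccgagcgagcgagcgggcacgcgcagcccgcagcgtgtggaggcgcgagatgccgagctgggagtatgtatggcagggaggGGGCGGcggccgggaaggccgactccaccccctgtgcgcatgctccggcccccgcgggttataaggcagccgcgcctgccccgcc
The Slc2a1 stretch held ACGTG with its first base 36 bases before the start, between GC boxes at 45 and 20 bases before it. The Slc16a1 stretch held the E-box 200 bases before the start and a GC box at 85. Of 32851 such stretches in the genome table, 16.6% held ACGTG, 6.02% CACGTG, 32.7% the GC box and 12.4% TATAAA, which was in neither of the printed stretches. Their GC content was 66.4% for Slc2a1 and 76.4% for Slc16a1, against a median of 52.4% over all stretches. These are matches of letters, not binding sites.

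The arrays were not alike. Non-deprived arrays 2 and 3 stood apart, with 75th percentiles over the named genes of 6.43 and 6.55 on the log2 scale, where the deprived arrays and non-deprived array 1 lay between 7.01 and 7.15. Both were below the other 4 arrays in 16.7% of genes, and by at least 1 log2 unit in 2.13%. Slc2a3 was among the 2.13%, with a gap of 1.318, Slc16a1 had a gap of 0.134, and Slc2a1 did not show this order. Limma called 0 of 14859 genes at an adjusted p under 0.05 (0% called), with 775 genes at an unadjusted p under 0.05 (5.22%). In the deprived arrays 56.3% of genes had a higher mean.

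All 3 transporters had higher means in the deprived than in the non-deprived arrays, and none passed the test. The log2 difference was 1.57 for Slc2a3, 0.88 for Slc16a1 and 0.80 for Slc2a1, and limma's adjusted p was 0.856 for all 3. Slc16a1 was the only one of the 3 whose groups did not overlap, and its values held their separation after quantile normalization and after median centring. For Slc2a3 the difference lay in non-deprived arrays 2 and 3, since non-deprived array 1 was as high as the deprived arrays. For Slc2a1 it lay in deprived arrays 2 and 3. In samples made of many cells, fewer cells of a type and less RNA per cell cannot be told apart.

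Slc2a3, the neuronal glucose transporter, was at log2 levels of 8.62, 7.99 and 9.42 in deprived arrays 1, 2 and 3. It was at 8.65, 5.99 and 6.67 in non-deprived arrays 1, 2 and 3. Non-deprived array 1 thus lay inside the range of the deprived group, and the other 2 non-deprived arrays lay below every deprived array, by 1.318 or more. The means were 8.68 ± 0.72 in deprived against 7.10 ± 1.38 in non-deprived arrays (SD, n = 3 each), and the difference of 1.57 ± 0.76 (SE) had a 95% interval from -0.25 to 3.40. On the linear scale this is 2.98-fold, with an interval from 0.839 to 10.6. The unadjusted p was 0.0806 in limma, and 0.3 in the exact two-sided permutation test over the arrays, where 0.1 is the smallest p that 3 against 3 can give. A larger positive difference was found in 1.62% of all genes, while 93.7% of genes had a smaller standard error than Slc2a3.

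The difference of Slc2a3 followed which non-deprived arrays entered the fit. It was 0.02 when non-deprived arrays 2 and 3 were both left out, a setting added after the data were seen. That setting leaves array 1 as the sole non-deprived sample and takes its spread from the deprived arrays. The difference was 1.02 once non-deprived array 2 was dropped and 2.35 once non-deprived array 1 was. In the last case the unadjusted p was 0.0062 and the adjusted p 0.235. Centring each array on its median gave 8.60, 7.96 and 9.32 in the 3 deprived arrays, against 8.57, 6.10 and 6.78 in the 3 non-deprived ones, so that the order of the arrays was kept except that non-deprived array 1 moved from just above to just below deprived array 1.

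Slc16a1, the proton-coupled monocarboxylate transporter, was at log2 levels of 5.91, 5.57 and 5.62 in deprived arrays 1, 2 and 3 and at 5.25, 4.10 and 5.11 in non-deprived arrays 1, 2 and 3. Every deprived array was above every non-deprived array, as in 6.3% of all genes. The deprived arrays lay within 0.333 of each other, against 1.144 for the non-deprived arrays, in which array 2 was the low one. The means were 5.70 ± 0.18 in deprived against 4.82 ± 0.63 in non-deprived arrays (SD, n = 3 each). They lie on either side of 5.63, the median of the mean levels of the named genes. Without a detection measure it is not known how far Slc16a1 stood above background. The difference of 0.88 ± 0.33 (SE) had a 95% interval from 0.10 to 1.66 before any adjustment, or 1.84-fold with an interval from 1.07 to 3.17. With an unadjusted p of 0.033 in limma it was among the 3.81% of genes that were higher at an unadjusted p under 0.05, and the exact permutation p was 0.1, the smallest possible. Without non-deprived array 2 the difference was 0.52, and without non-deprived arrays 2 and 3 it was 0.45, with an unadjusted p of 0.187.

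Slc2a1, the barrier and glial glucose transporter, was at log2 levels of 5.89, 6.90 and 7.49 in deprived arrays 1, 2 and 3. Its levels in non-deprived arrays 1, 2 and 3 were 6.28, 5.67 and 5.92. Deprived array 1 was below 2 of the 3 non-deprived arrays, while deprived arrays 2 and 3 were above all of them. Here the spread was in the deprived group, the opposite of the other transporters, with means of 6.76 ± 0.81 in deprived against 5.96 ± 0.31 in non-deprived arrays (SD, n = 3 each). The difference of 0.80 ± 0.46 (SE) had a 95% interval from -0.29 to 1.90, or 1.75-fold with an interval from 0.817 to 3.73 (unadjusted p = 0.125 in limma, exact permutation p = 0.3). It was 1.24 without deprived array 1, with an unadjusted p of 0.0199 and an adjusted p of 0.963. It was 0.44 with deprived array 3 left out, and 0.48 with non-deprived arrays 2 and 3 left out.

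**Figure D1:**
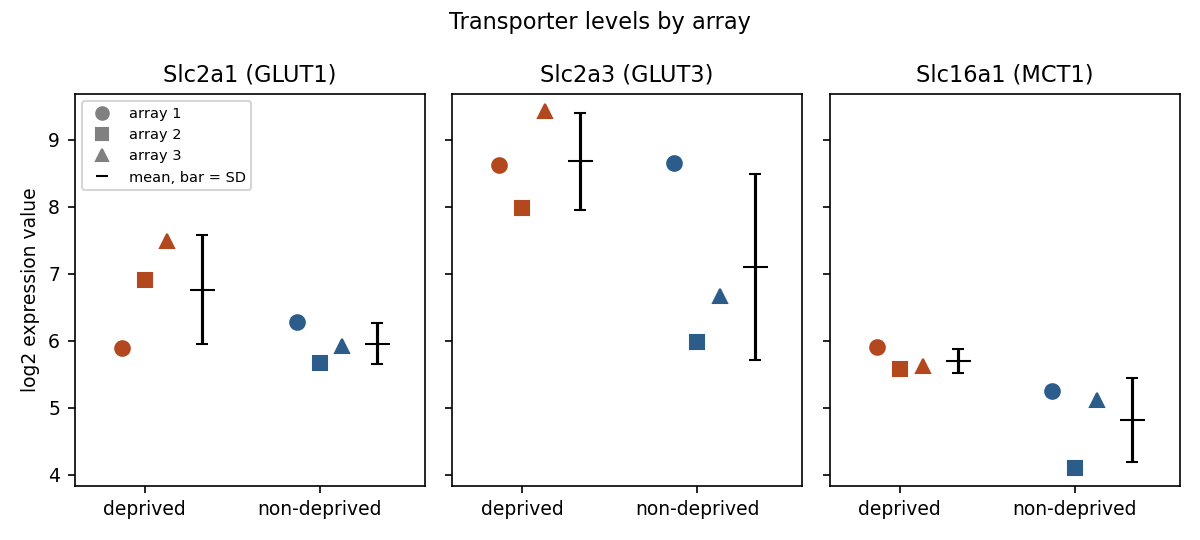
Log2 expression value (vertical axis) of Slc2a1, Slc2a3 and Slc16a1 in the 3 deprived (left in each panel) and 3 non-deprived arrays, with the marker shape giving the array number and the bar the mean with its SD. Slc16a1 separates the groups, non-deprived array 1 of Slc2a3 lies at 8.65 among the deprived arrays, and deprived array 1 of Slc2a1 lies at 5.89 among the non-deprived ones; levels of different genes come from different probes and are not compared.

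**Figure D2:**
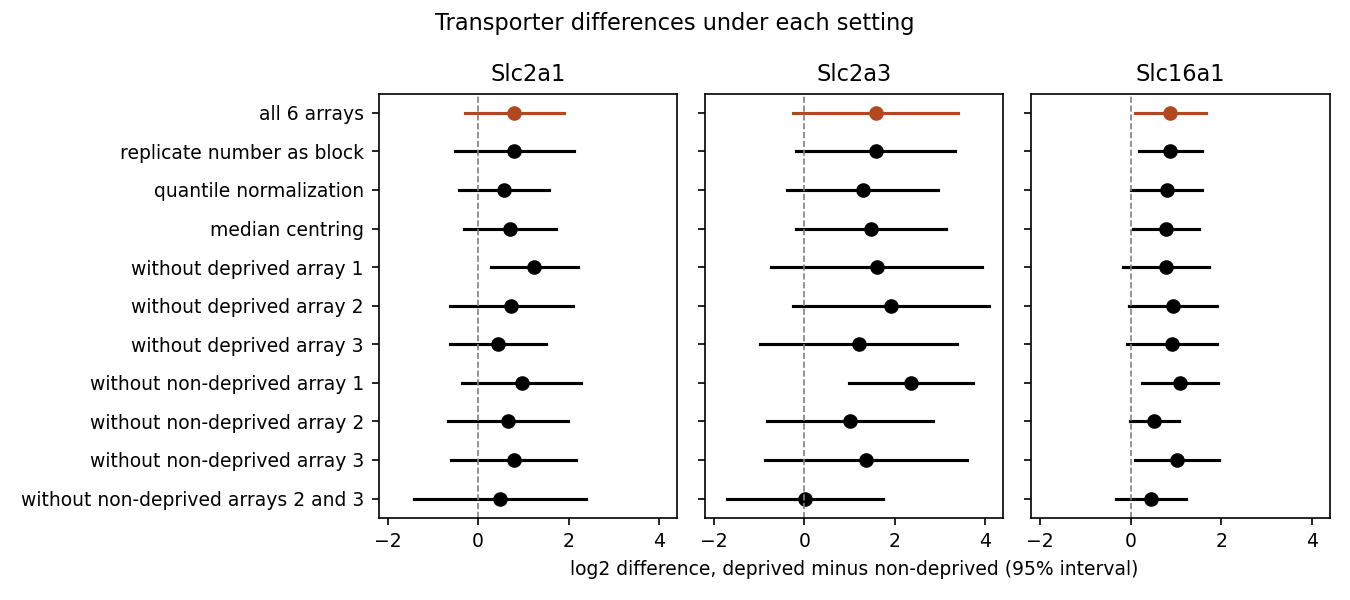
Log2 difference, deprived minus non-deprived (horizontal axis), of the 3 transporters with all 6 arrays and under other settings, each point with the 95% interval of its limma fit. All points lie above 0, and for Slc2a3 the value is 0.02 when non-deprived arrays 2 and 3 are both left out.

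The transporters did not share one profile over the arrays. Whether they differed in their response was asked of the difference between a pair of transporters within each array, in which any shift common to an array cancels. For Slc2a3 minus Slc2a1 this was 2.73, 1.08 and 1.93 log2 units in the 3 deprived arrays, against 2.37, 0.32 and 0.75 in the 3 non-deprived ones. The groups overlapped, and their means differed by 0.77. For Slc2a3 minus Slc16a1 it was 2.71, 2.41 and 3.80 in the 3 deprived arrays, against 3.41, 1.88 and 1.56 in the 3 non-deprived ones, a difference of 0.69. For Slc16a1 minus Slc2a1 it was 0.02, -1.33 and -1.87 in the 3 deprived arrays, against -1.04, -1.56 and -0.81 in the 3 non-deprived ones, and the means differed by 0.08. The exact two-sided permutation p was 0.4, 0.4 and 1, or 0.6, 0.6 and 1 after Benjamini-Hochberg adjustment over the 3 pairs. With 3 arrays a group this test cannot give a p under 0.1, so it could not have called a difference between transporters. Without non-deprived arrays 2 and 3 the sign turned for all 3 pairs, to -0.46, -0.43 and -0.025.

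The genes whose profile over the 6 arrays was most like that of each transporter were picked by Pearson r among 4288 genes. These had a mean at or above 5.63, the median of the mean levels, and an SD of at least 0.5 over the arrays. With 6 arrays, 2 of which stood apart, high values of r are common, and they are given as a description. Slc2a3 had 286 genes with r above 0.9, led by Ift172 (intraflagellar transport, r = 0.997), the tRNA methyltransferase gene Trmt1 (0.993), the autophagy gene Wipi2 (0.990), Hdlbp, which encodes the RNA-binding protein vigilin (0.990), and the talin gene Tln2 (0.989). Wipi2 was at 7.60, 6.77 and 7.95 in deprived against 7.65, 4.41 and 5.21 in non-deprived arrays, the same low pair of arrays as for Slc2a3. Slc16a1 had 251 such genes, led by the fatty acid desaturase gene Scd2 (r = 0.999), Agfg1 (0.994), the RNA-binding protein gene Larp1 (0.990), the peptidase gene Nln (0.989) and Idh3g, a subunit gene of isocitrate dehydrogenase (0.984). Scd2 was at 8.70, 8.11 and 8.32 in deprived against 7.44, 4.98 and 7.17 in non-deprived arrays. Slc2a1 had 67 such genes, led by the phosphatidylserine synthase gene Ptdss2 (r = 0.993), Clba1 (0.984), Zfp553 (0.980), Tmem64 (0.979) and Fam214a (0.969), in all of which deprived arrays 2 and 3 were the highest.

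Within the wider families, higher values were not general. Of 9 measured Slc2a genes, 5 had a higher and 4 a lower mean in the deprived arrays, with a median difference of 0.05 against 0.05 over all genes tested. Of 12 measured Slc16a genes, 7 were higher and 5 lower, with a median of 0.12. Both medians turned to the other side of 0 after quantile normalization (-0.13 for Slc2a, -0.04 for Slc16a, -0.04 over all genes), and that of Slc2a also after median centring (-0.05, as over all genes). No gene of either family passed the adjusted test, and Slc16a1 was the single one at an unadjusted p under 0.05, against 5.22% of all genes. Apart from Slc2a1 and Slc2a3, the Slc2a genes differed by -0.41 to 0.13. Slc2a4, which encodes the insulin-responsive transporter GLUT4, was at 4.69 ± 0.23 in deprived against 4.65 ± 0.04 in non-deprived arrays. Slc2a8, which encodes the intracellular GLUT8, was at 6.003 ± 0.44 in deprived against 5.92 ± 0.28 in non-deprived arrays. Both signs turned under median centring, to -0.049 and -0.015. Slc2a2, which encodes the liver and islet transporter GLUT2, differed by -0.22, or by -0.11 with deprived array 1 left out, -0.34 with non-deprived array 1 left out and -0.14 with non-deprived array 3 left out.

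Slc16a7, which encodes MCT2, the monocarboxylate transporter of neurons, was at 9.97, 10.23 and 8.83 in the 3 deprived arrays, against 8.74, 9.16 and 10.24 in the 3 non-deprived ones. Its groups covered nearly the same range, the difference was 0.29 with a 95% interval from -0.98 to 1.56, and dropping non-deprived array 3 gave 0.72, dropping non-deprived array 1 gave -0.03. Slc16a3, which encodes the lactate exporter MCT4, differed by -0.04 (-0.47 to 0.39). Slc16a11 was at 5.44, 5.62 and 5.69 in deprived against 6.08, 6.11 and 5.76 in non-deprived arrays, a difference of -0.40 in groups that did not overlap (as in 4.03% of genes downwards), with an adjusted p of 0.856 in limma. Slc16a9, linked to carnitine transport in humans, differed by -0.37, or by -0.23 without non-deprived array 2. Slc16a14, named after its values were seen, had the largest positive difference of the family at 0.93, which became 1.47 on dropping non-deprived array 1, 0.54 on dropping non-deprived array 3 and -0.15 on dropping non-deprived arrays 2 and 3.

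MCT1 reaches the cell surface only with a chaperone of the basigin family. Basigin itself (Bsg) was at 10.14, 10.17 and 10.19 in the 3 deprived arrays, against 10.27, 8.01 and 10.27 in the 3 non-deprived ones. Non-deprived array 2, also the lowest array for Slc16a1, was the only one that departed, and without it the difference of 0.65 became -0.10. The other chaperones were named after their values were seen. Nptn, which encodes neuroplastin, differed by -0.02, and Emb, which encodes embigin, by 1.55 ± 0.97 (SE), with 7.19, 4.25 and 6.25 in deprived against 5.28, 5.17 and 2.60 in non-deprived arrays. The value of Emb became 0.90 on dropping deprived array 1, 2.37 on dropping deprived array 2 and 0.67 on dropping non-deprived array 3.

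**Figure D3:**
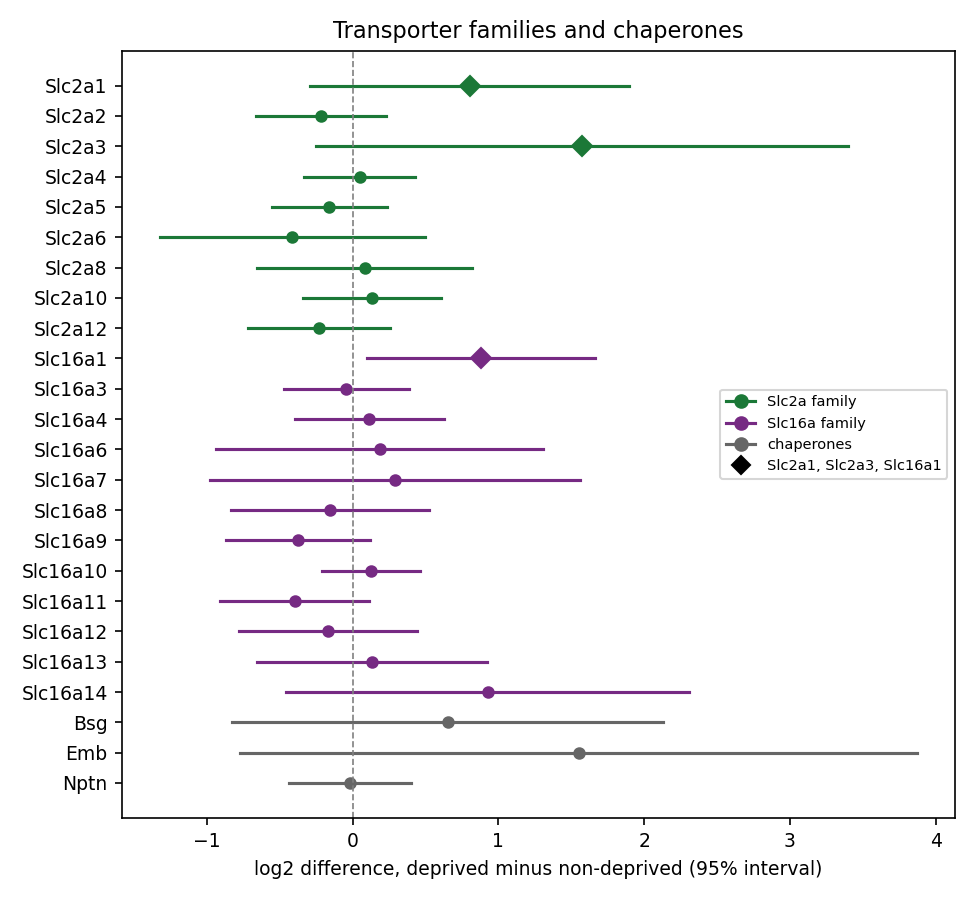
Log2 difference, deprived minus non-deprived (horizontal axis, with the 95% interval of the limma fit), of the measured Slc2a genes, Slc16a genes and MCT chaperones; diamonds mark Slc2a1, Slc2a3 and Slc16a1. Except for Slc16a1 (0.10 to 1.66), all intervals include 0.

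Enzymes downstream of the transporters were described through lists, in none of which a gene passed the adjusted test. Counts of higher means in these and the following lists are to be read beside 56.3% over all genes. Of 27 listed symbols of glycolytic enzymes 17 were measured, while Gapdh, Pgk1, Gpi1, Pgam1 and Eno1, among others, were not among the named genes. Of the 17 measured, 11 were higher and 6 lower (median 0.15), and 0 were at an unadjusted p under 0.05. After quantile normalization 9 were higher, and after median centring 10. Without non-deprived arrays 2 and 3 the median was -0.24 and 3 of 17 were higher. Hk1, the hexokinase of neurons, was at 8.08 ± 0.65 in deprived against 7.96 ± 0.43 in non-deprived arrays, and Hk2 differed by -0.07. Pfkfb2, which makes the activator of phosphofructokinase, differed by 1.28 ± 0.76 (SE), but by 2.11 with non-deprived array 1 left out, 0.83 with non-deprived array 2 left out and -0.38 with non-deprived arrays 2 and 3 left out. Eno3, an enolase gene, differed by 0.60, or 0.39 with deprived array 1 left out and 0.29 with non-deprived arrays 2 and 3 left out. Pfkp, a phosphofructokinase gene, differed by 0.40, or 0.78 on dropping non-deprived array 1, 0.04 on dropping non-deprived array 2 and -0.36 on dropping non-deprived arrays 2 and 3. The cluster annotated as Pkm, the pyruvate kinase gene, differed by -0.18, with means of 5.04 in deprived and 5.22 in non-deprived arrays. Both means were below 5.63, the median of the mean levels of the named genes. Whether this cluster reads the main pyruvate kinase transcript was not tested.

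Among genes of lactate and pyruvate handling, 13 of 21 listed symbols were measured. Of these 13, 11 were higher (median 0.23, and 0.19 without non-deprived arrays 2 and 3), with 0 at an unadjusted p under 0.05. The count fell to 9 after quantile normalization and to 8 after median centring. Ldhb, which encodes the lactate dehydrogenase subunit that favours lactate use, was at 10.66 ± 0.22 in deprived against 10.43 ± 0.36 in non-deprived arrays, a difference of 0.23 that became 0.10 on dropping deprived array 3 and 0.02 on dropping non-deprived array 3. Dlat, a subunit gene of the pyruvate dehydrogenase complex, was at 8.95, 8.47 and 8.47 in deprived against 7.94, 8.30 and 7.96 in non-deprived arrays. Its groups did not overlap (as in 6.3% of genes upwards), with an adjusted p of 0.856 in limma. Pdk3, a kinase gene that restrains this complex, differed by 1.07 (0.63 without non-deprived array 2) and Pdhx, another subunit gene, by -0.59 (-0.91 without non-deprived array 3). Of the 4 measured genes of ketone body use, 3 were higher (median 0.39, and 0.02 without non-deprived arrays 2 and 3). Oxct1, the enzyme that activates ketone bodies, differed by 0.49 and Bdh1 by 0.68, both named after their values were seen, and without non-deprived arrays 2 and 3 they differed by 0.04 and 0.10. The difference of Bdh1 became 1.23 on dropping deprived array 1, 0.31 on dropping deprived array 2 and 0.12 on dropping non-deprived array 2.

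In the pentose phosphate pathway 5 of 6 genes were higher (median 0.18), but 3 after quantile normalization and 3 after median centring. Taldo1 differed by 1.64 ± 0.77 (SE), Rpia by 0.30 and Pgd by 0.52 (-1.32 without non-deprived arrays 2 and 3). In glycogen metabolism 9 of 14 were higher (median 0.28, but -0.12 without non-deprived arrays 2 and 3), and 8 after either rescaling. Of them 2 were higher at an unadjusted p under 0.05, as were 3.81% of all genes. Ugp2, which makes the glucose donor for glycogen, was at 8.12, 8.63 and 7.15 in deprived against 6.92, 5.94 and 5.56 in non-deprived arrays, a difference of 1.83 with an unadjusted p of 0.0132 and an adjusted p of 0.856 in limma, or 1.05 without non-deprived arrays 2 and 3. For Phkg2, a catalytic subunit gene of phosphorylase kinase, the difference was 2.34 ± 0.91 (SE), or 1.40 with non-deprived array 3 left out. Gyg, which encodes the glycogen primer glycogenin, differed by -1.26, or by -0.83 with deprived array 1 left out and -0.60 with non-deprived array 2 left out.

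Of 30 measured regulators of glucose transport, 22 were higher, but 16 after quantile normalization and 18 after median centring. Their median was 0.15 (0.07 without non-deprived arrays 2 and 3), and 1 was at an unadjusted p under 0.05, against 5.22% of all genes. That gene was Tbc1d1, which encodes a Rab GTPase-activating protein that holds glucose transporters inside muscle cells, at 5.84, 5.63 and 5.90 in deprived against 5.50, 4.87 and 5.08 in non-deprived arrays. Its difference of 0.64 was 0.29 without non-deprived arrays 2 and 3. Prkaa2, a catalytic subunit gene of AMP-activated kinase, differed by 1.45 and the receptor gene Igf1r by 0.83, or by 0.36 and 0.47 without these arrays. Dropping deprived array 1 gave 0.52 for Igf1r, and dropping non-deprived array 3 gave 0.51. Txnip, whose product promotes the removal of GLUT1 from the cell surface, was at 5.58, 4.20 and 6.31 in deprived against 5.30, 4.20 and 3.67 in non-deprived arrays, and its difference of 0.98 became 1.56 on dropping deprived array 2, 0.50 on dropping deprived array 3, 0.62 on dropping non-deprived array 3 and 0.07 on dropping non-deprived arrays 2 and 3. Hif1a, the oxygen-regulated subunit of hypoxia-inducible factor, was at 8.03, 8.53 and 8.46 in the 3 deprived arrays, against 8.04, 9.42 and 7.12 in the 3 non-deprived ones, which lay on both sides of the deprived group.

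Other targets of hypoxia-inducible factor were higher in 11 of 14 (median 0.17, and 0.08 without non-deprived arrays 2 and 3). After quantile normalization 9 were higher, as were 9 after median centring. Bnip3l, a mitophagy receptor gene, was at 6.70, 5.93 and 7.75 in deprived against 5.31, 5.44 and 5.44 in non-deprived arrays. Its difference of 1.39 ± 0.46 (SE) had an unadjusted p of 0.0213 and an adjusted p of 0.856 in limma. Bnip3l was the single gene of the list at an unadjusted p under 0.05, against 5.22% of all genes. Without deprived array 3 the difference was 0.91. Kdm3a, a histone demethylase gene, differed by 0.85, but by 1.31 with non-deprived array 1 left out, 0.23 with non-deprived array 2 left out and -0.08 with non-deprived arrays 2 and 3 left out. Adm, the adrenomedullin gene, differed by 0.84, which became 1.47 on dropping deprived array 2, 0.43 on dropping deprived array 3, 1.35 on dropping non-deprived array 2 and 0.35 on dropping non-deprived array 3.

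Markers of the cell types that carry GLUT1 and MCT1 in the brain were compared between the groups. All 13 listed endothelial markers were measured, 8 higher and 5 lower (5 and 3 higher after quantile normalization and median centring), at log2 levels between 2.71 and 5.66 in all arrays. Their summed linear level was 314 to 341 in the deprived and 313 to 338 in the non-deprived arrays, so the sums covered nearly the same range. Without a detection measure it is not known how far these markers, or the pericyte, glial and blood ones below, stood above background. Like sums therefore do not show a like content of these cells. Of the endothelial markers, Pecam1 was the single one whose groups did not overlap, at 4.47, 4.55 and 4.46 in deprived against 4.12, 4.19 and 4.24 in non-deprived arrays (difference 0.32, unadjusted p = 0.0324 and adjusted p = 0.856 in limma). The tight junction gene Cldn5 was at 3.93, 3.02 and 4.03 in deprived against 4.03, 2.85 and 3.76 in non-deprived arrays. Pericyte markers (9 of 9 measured) summed to 275 to 306 in the deprived and 268 to 282 in the non-deprived arrays. Astrocyte markers (10 of 11 measured) summed to 424 to 708 in the deprived and 416 to 574 in the non-deprived arrays, with the highest sum in deprived array 1. Among the deprived arrays Slc2a1 was lowest in that array, and a link between the astrocyte sum and Slc2a1 was not tested. Oligodendrocyte markers (11 of 12) summed to 507 to 586 in the deprived and 468 to 572 in the non-deprived arrays, and microglial markers (10 of 10) to 303 to 367 in deprived against 305 to 363 in non-deprived arrays. Deprived means were higher for 3 and lower for 7 microglial markers, and Aif1 and C1qc were higher in every deprived than in every non-deprived array, Aif1 by 0.78 (unadjusted p = 0.0136, adjusted p = 0.856 in limma) and C1qc by 0.26. Groups also did not overlap for the pericyte and smooth muscle marker Tagln (0.38), and downwards for the astrocyte marker Gfap (-0.24) and the oligodendrocyte marker Mag (-0.19). Over all genes, the groups did not overlap upwards in 6.3% and downwards in 4.03%. Of the 5 blood markers 2 were measured, both lower in the deprived arrays. No marker was at 0 in this table, which has no known floor.

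Of 10 listed markers of excitatory neurons 9 were measured, and all 9 had a higher mean in the deprived arrays (8 after median centring), against 56.3% of all genes. None passed the adjusted test, and 2 were higher at an unadjusted p under 0.05, as were 3.81% of all genes. The groups did not overlap in 4, all upwards (as in 6.3% of all genes), and overlapped in 5. Their summed level was 3556 to 4496 in the deprived and 2619 to 3050.4 in the non-deprived arrays. Slc17a7, which encodes the vesicular glutamate transporter VGLUT1, was between 9.92 and 10.34 in deprived against between 8.92 and 9.44 in non-deprived arrays, and the layer 4 marker Rorb between 7.77 and 8.41 in deprived against 6.83 and 8.57 in non-deprived arrays. Interneuron markers (10 of 10 measured) summed to 2188 to 4905 in the deprived and 2778 to 4464 in the non-deprived arrays. Sst, the marker with the highest level, was between 10.08 and 11.59 in deprived against between 10.46 and 11.36 in non-deprived arrays. It weighed most in these linear sums, which therefore follow Sst more than the other interneuron markers. Interneuron means were higher for 6 and lower for 4 markers, with differences from -0.89 (Npy) to 1.53 (Pvalb). Gad2 was at 8.87, 7.81 and 9.13 in deprived against 8.99, 5.98 and 6.34 in non-deprived arrays, the same low pair of arrays as for Slc2a3. Sst and Gad2 were thus read in samples labelled as star pyramid neurons, an excitatory type, and the purity of the samples was not tested. The part of the neuronal markers in the transporter differences was not tested either.

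**Figure D4:**
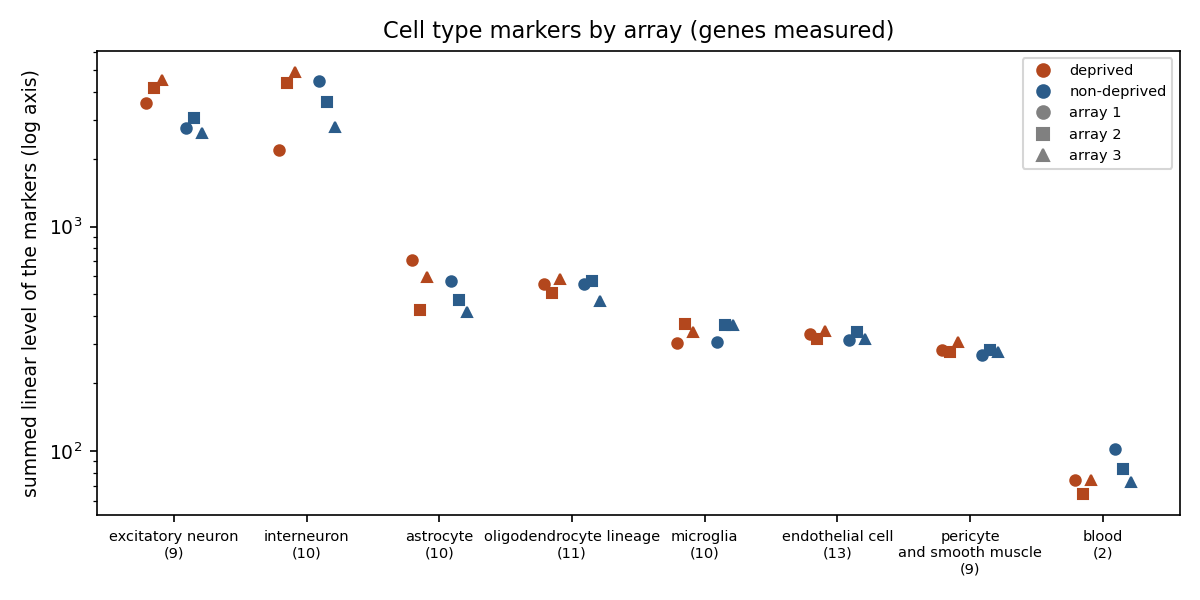
Summed linear level of the markers of 8 cell types in each array (vertical log axis, with the number of genes measured under each name), deprived arrays left and non-deprived arrays right of each pair, marker shapes giving the array number. The excitatory sums of the deprived arrays (3556 to 4496) lie above those of the non-deprived arrays, and the endothelial sums (314 to 341 deprived, 313 to 338 non-deprived) overlap.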

How the data were processed

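The authors deposited log2 values, 1 for each of 23331 transcript clusters on each of 6 exon arrays; the log2 scale was inferred from their range (0.584 to 13.6). How the authors corrected background, normalized and summarized is not stated in these sources; the submitters' processing notes name mm9. Values were used without further scaling, and the number of arrays limits the precision. No detection measure was used.

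Of the clusters, 14995 had 1 gene symbol in the platform annotation, 1019 several (not named) and 7317 none. The highest-mean cluster was kept for 135 genes with several, leaving 14859 genes. Symbols were checked against RefSeq through Entrez identifiers (14940 matched, 0 changed). Ldha, Mpc1 and Mpc2 were not analysed here.

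Groups were compared with limma 3.58.1 in R 4.3.3 (lmFit, eBayes with trend, group as sole term, two-sided, Benjamini-Hochberg over 14859 genes, threshold 0.05), and single genes with exact permutation over 20 splits, in Python 3.11.15. The fit was first tested on simulated data. Members and lists were chosen with earlier results of these data known. Genes named are the transporters, a fixed set of 15 symbols, the 3 of smallest p in each list of at least 5 measured genes, the 5 most similar by Pearson r (mean at or above the median of 5.63, SD of at least 0.5) and cell type markers. Genes named otherwise are said to be. Alternatives were scaling, a 25th percentile filter, all clusters, no trend, the replicate block and left-out arrays. The labels do not say whether same-numbered arrays come from 1 animal, so the main fit has no pairing and the replicate block is an alternative. Same-numbered arrays did not deviate together (r of -0.05, -0.02 and -0.003 for numbers 1, 2 and 3). With 3 arrays a group and amplified RNA, this cannot show that they are unpaired.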

Additional observations from a re-analysis of the deposited data

How the results depend on the processing

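The 3 transporter differences stayed above 0, short of the adjusted threshold, under each of the 14 settings. Leaving out each array in turn gave 0.44 to 1.24 for Slc2a1, 1.02 to 2.35 for Slc2a3 and 0.52 to 1.09 for Slc16a1, with adjusted p of 0.235 or more. The replicate block left them at 0.80, 1.57 and 0.88 (adjusted p = 0.866, 0.862 and 0.862), changed no call, and gave 745 genes at an unadjusted p under 0.05 against 775. That count ran from 603 to 1850 over the left-out arrays, highest without non-deprived array 1. Of the 775, 73.0% were higher, compared with 58.2% by median centring, 59.8% by quantile normalization and 36.0% when non-deprived arrays 2 and 3 were dropped. The setting without that pair of arrays was added after the data were seen, here and wherever it is used above. It turned the transporter pairs to -0.46 (Slc2a3 minus Slc2a1), -0.025 (Slc16a1 minus Slc2a1) and -0.43 (Slc2a3 minus Slc16a1). Single left-out arrays moved Slc16a1 minus Slc2a1 between -0.46 and 0.48. The settings were also followed for 37 genes of the fixed set, the smallest p per list and those named after seeing their values. The genes most similar by Pearson r and the cell type markers were not among them. Of the 37, 0 passed in any setting and 16 turned sign in at least 1. For 29, a single left-out array moved the difference by over 1.5 times, with the values given beside each gene or as ranges here. By quantile normalization Slc2a8 went to -0.13, Hk1 to -0.13 and Hif1a to -0.022, and by median centring Slc2a4 to -0.049 and Slc2a8 to -0.015. With non-deprived arrays 2 and 3 dropped, the turned values were Slc2a8 -0.11, Bsg -0.10, Hk1 -0.19, Slc2a2 0.035, Pfkfb2 -0.38, Pfkp -0.36, Pgd -1.32, Kdm3a -0.077, Nptn 0.057 and Slc16a14 -0.15. Single left-out arrays gave -0.082 to 0.13 for Slc2a4, -0.12 to 0.32 for Slc2a8, -0.10 to 0.0295 for Slc16a3, -0.027 to 0.72 for Slc16a7, -0.10 to 1.03 for Bsg, -0.23 to 0.40 for Hk1, -0.16 to 0.052 for Hk2, -0.41 to 0.12 for Pkm, -0.39 to 0.76 for Hif1a, -0.18 to 1.44 for Pgd and -0.11 to 0.10 for Nptn. The cause of these turns was not tested.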
